A study of Homo sapiens with 6 samples.

Results

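A set of 35 genes that build and drive the mitotic apparatus was followed through 6 RNA sequencing libraries of human thyroid cancer cell lines. The genes were chosen by name, with earlier results of these data known, and all 35 were found among the 58884 gene identifiers of the authors' table. BHT-101 and 8505C are established lines of anaplastic thyroid carcinoma, and FTC-133 is an established line of follicular thyroid carcinoma. A small interfering RNA, either against CRABP2 (siCRABP2) or a control (siControl), was given to BHT-101 and FTC-133, and a vector, either empty or carrying CRABP2, was given to 8505C. CRABP2 encodes a cytosolic protein that hands retinoic acid to its nuclear receptors. Each of the 6 conditions was represented by 1 library. The dose, the time after transfection, whether the 8505C cells were selected as clones and whether cultures were grown separately could not be taken from the labels. The kind of transfection cannot be told apart from the line where 8505C is compared with the others. Values are FPKM (fragments scaled to exon length and library depth), and values for a line are given below with the control library (siControl or empty vector) before the other.

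CRABP2 itself was 27.3 and 11.4 FPKM in BHT-101, 8.94 and 0.170 FPKM in FTC-133, and 0.607 and 38.0 FPKM in 8505C, so the targeted gene followed the labels in every line. The libraries held between 22084110 and 27958622 reads. Of 7 thyroid markers, 0 reached 1 FPKM in BHT-101, 2 did in FTC-133 (NKX2-1 and PAX8) and 1 did in 8505C (NKX2-1), and of 4 leukocyte markers 0 did in any library. Of 5 epithelial markers 5 did in BHT-101, 3 in FTC-133 and 2 in 8505C. Of 5 fibroblast markers 1 or 2 did in BHT-101 (at most 2.48 FPKM), 2 in FTC-133 (COL1A1 and THY1) and 0 in 8505C, and of 3 endothelial markers at most 1 did in any library, at up to 2.46 FPKM. The median FPKM of all genes at 1 FPKM or more lay between 6.11 and 6.70 in the 6 libraries.

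In a dividing cell, CDK1 bound to a B-type cyclin starts mitosis, and the polo-like and Aurora kinases build the spindle. Kinetochores, protein assemblies on the centromeres, couple each chromosome to spindle microtubules and hold back anaphase through the spindle checkpoint until every chromosome is attached. The anaphase-promoting complex (APC/C) with CDC20 then marks securin and cyclin B for destruction, and motors and bundling proteins of the midzone complete cytokinesis. Most of these genes are transcribed in a wave late in the cell cycle. In quiescent cells the DREAM complex keeps them silent, and in dividing cells B-MYB and FOXM1, with the MuvB core that DREAM also contains, activate them. MuvB binds the cell-cycle genes homology region (CHR), of which TTTGAA and TTTAAA are forms, and the factor NF-Y binds CCAAT boxes that often lie next to it.

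Both motifs could be seen in the members' own promoters. RefSeq promoter windows (GRCh38.p14, 250 bases before to 50 after a transcription start, 300 in all) were matched for 29 of the 35 genes. AURKA, UBE2C, TTK, KNL1, BIRC5 and TPX2 were not matched. The 6 stretches below are shown because each holds both motifs and because their genes recur in the results. Each gives the 110 bases before a RefSeq start, read 5′ to 3′ on the gene's strand, with the CHR-like hexamers and the CCAAT boxes on either strand in capitals. CDK1 lies on the plus strand at chr10:60778368-60778477, HMMR on the plus strand at chr5:163460522-163460631, CDC20 on the plus strand at chr1:43358871-43358980, CCNB2 on the plus strand at chr15:59105036-59105145, PLK1 on the plus strand at chr16:23678779-23678888 and MKI67 on the minus strand at chr10:128126424-128126533.
CDK1: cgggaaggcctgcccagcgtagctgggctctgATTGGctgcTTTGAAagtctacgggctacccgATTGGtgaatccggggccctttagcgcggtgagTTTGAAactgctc
HMMR: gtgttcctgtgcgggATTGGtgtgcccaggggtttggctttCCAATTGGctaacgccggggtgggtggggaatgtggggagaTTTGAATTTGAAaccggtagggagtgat
CDC20: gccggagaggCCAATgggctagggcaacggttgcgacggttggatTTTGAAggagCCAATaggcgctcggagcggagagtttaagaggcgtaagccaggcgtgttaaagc
CCNB2: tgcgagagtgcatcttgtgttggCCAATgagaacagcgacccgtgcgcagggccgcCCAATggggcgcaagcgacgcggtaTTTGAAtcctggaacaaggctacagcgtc
PLK1: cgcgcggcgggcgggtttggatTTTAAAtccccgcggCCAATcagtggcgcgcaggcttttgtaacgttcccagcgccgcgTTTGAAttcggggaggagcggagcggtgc
MKI67: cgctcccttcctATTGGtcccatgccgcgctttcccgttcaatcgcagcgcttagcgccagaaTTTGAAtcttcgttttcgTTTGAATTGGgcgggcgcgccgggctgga

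In CDK1, CCNB2, PLK1 and MKI67 a CHR-like hexamer began within 29 bases of the start, at 13, 29, 29 and 29 bases before it. HMMR carried a tandem repeat of the hexamer that began 28 and 22 bases before the start, and a CCAAT box that overlapped its own reverse complement. In MKI67 the hexamer nearest the start overlapped a CCAAT box on the other strand. GENCODE release 29 has transcripts of CDK1, HMMR, CDC20, CCNB2 and PLK1 that begin within or before these stretches, so the distances hold for the RefSeq start only.

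Over the 100 bases before the start, TTTGAA or TTTAAA was found on either strand in 19 of 29 members (65.5%) and in 10.1% of 27305 genes with a window. CCAAT was found in 21 members (72.4%) and in 21.6% of genes, and both together in 15 members (51.7%) and in 1.98% of genes. Over the whole window of 300 bases, TTTGAA or TTTAAA was found in 26 members (89.7%) and in 27.9% of genes. Members had 1.21 windows per gene and all genes 1.29. Replication genes, which are transcribed earlier in the cell cycle, had TTTGAA or TTTAAA in the 100 bases in 3 of 22 cases (13.6%) and CCAAT in 12 (54.5%). A match describes letters in a window and is not a binding site.

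The level of the mitosis genes separated the 3 lines. The median FPKM of the 35 genes was 10.7 and 10.3 in BHT-101, 26.7 and 25.2 in FTC-133, and 0.420 and 1.65 in 8505C. Together they took 1967 and 2152 reads per 1000000 in BHT-101, 5477 and 4134 in FTC-133, and 122 and 395 in 8505C. FTC-133 was highest and 8505C lowest, and in the control libraries the median ratio of these lines was 63.6, wider than the median fold of 3.53 within 8505C. In bulk RNA, fewer cells in mitosis and less mitotic RNA per cell cannot be told apart.

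In the control libraries all 35 members followed 1 order, FTC-133 above BHT-101 above 8505C, as did 23.9% of 13736 genes at 1 FPKM or more in at least 2 libraries. The lower FTC-133 library lay above the higher BHT-101 library in 35 of 35 cases, where 48.3% of those genes did so. The higher 8505C library lay below the lower BHT-101 library in 34 of 35, with KNL1 as the exception, where 43.2% of genes did so. The ratio of siControl libraries, FTC-133 over BHT-101, ran from 1.82 for CDC25C to 5.64 for DLGAP5, with a median at 2.89. For siControl BHT-101 over 8505C with the empty vector the median ratio was 21.1, from 4.99 for KNL1 to 118 for the kinesin KIF20A. In BHT-101 and FTC-133 all members but PRC1 reached 1 FPKM in every library. In 8505C 7 of 35 reached it without CRABP2 on the vector and 23 with it. The 7 that did in both 8505C libraries were TOP2A, CCNB1, CDC20, AURKA, KIF11, TPX2 and PTTG1.

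**Figure D1:**
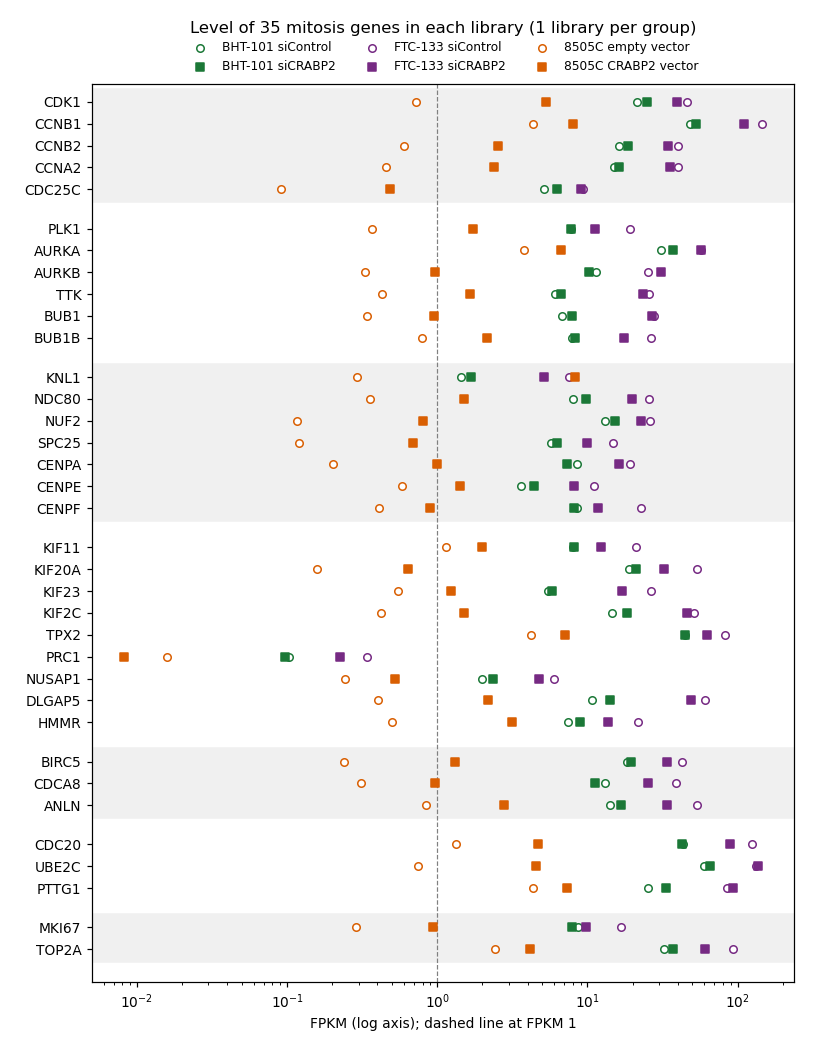
FPKM (log axis) of each of the 35 mitosis genes in each of the 6 libraries, grouped by role; open circles are the siControl or empty vector libraries, filled squares the siCRABP2 or CRABP2 vector libraries, and each point is 1 library. FTC-133 lies to the right of BHT-101 for all 35 genes, and 8505C lies to the left of both for 34, with KNL1 in the CRABP2 vector library as the exception.

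The level of each gene was compared between lines with limma on log2(FPKM + 1), a scale on which differences of low genes are understated. The 2 libraries of a line served as its replicates. They differ in treatment, so the spread includes the treatment, and the p-values measure the spread between these libraries only. The 3 contrasts share libraries and are given side by side. Of the 35 genes, 34 passed the filter of at least 1 FPKM in 2 or more libraries and PRC1 did not. FTC-133 was higher than BHT-101 for 26 of 34 at an adjusted p under 0.05, where 30.2% of 13736 genes were. In 8505C 33 of 34 were lower than in BHT-101, where 32% of genes were, and 33 of 34 were lower than in FTC-133, where 35.3% of genes were. Of the 35, 12 lay under 1 FPKM in both 8505C libraries, PRC1 among them. The rest of these met the filter only through the other lines, where they are higher, so it favoured a lower call in 8505C. The fit without the filter is given below. The median difference of the members was 1.08 for FTC-133 minus BHT-101, -2.54 for 8505C minus BHT-101 and -3.72 for 8505C minus FTC-133. Over all genes tested the same medians were 0.16, -0.01 and -0.13.

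The 26 calls between FTC-133 and BHT-101 rested on which libraries entered. They were 8 without BHT-101 siControl, 9 without BHT-101 siCRABP2, 10 without FTC-133 siControl, 21 without FTC-133 siCRABP2 and 32 without either 8505C library. With all genes above 0 in the fit and no filter, 10 of 35 members were higher in FTC-133, where 13.4% of 33848 genes were. In that fit 32 of 35 were lower in 8505C than in BHT-101 (14.1% of genes) and 34 of 35 lower than in FTC-133 (16.8%). The calls against 8505C ranged from 32 to 34 over every library left out. Quantile normalization moved the median of all genes by over 0.1 in the contrasts with FTC-133, to 0.04 for FTC-133 minus BHT-101 and 0.03 for 8505C minus FTC-133. For 8505C minus FTC-133 it turned 3414 higher and 4850 lower genes into 4287 and 4002. The members' medians were then 0.97 and -3.52.

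Among the kinase and its partners that start mitosis, CDK1 was 21.6 and 24.9 FPKM in BHT-101, 46.0 and 39.8 FPKM in FTC-133, and 0.724 and 5.31 FPKM in 8505C. CCNB1, the B-type cyclin that activates it, was 48.0 and 53.2 FPKM in BHT-101, 146 and 110 FPKM in FTC-133, and 4.37 and 8.06 FPKM in 8505C. For both genes, as for every other member but KNL1, the groups of libraries from the 3 lines did not overlap. Of 13736 genes, 48.3% had the lower FTC-133 library above the higher BHT-101 library. The higher 8505C library lay below the lower BHT-101 library for 43.2%. By limma CCNB1 was 1.31 higher in FTC-133 than in BHT-101 (SE 0.27, adjusted p = 0.00898). For CDK1 the same difference, 0.86, missed the threshold (SE 0.55, adjusted p = 0.238). CCNB2, the second B-type cyclin, and CCNA2, the cyclin of late S and G2 phase, ran from 15 to 18.8 FPKM in BHT-101, from 34.4 to 40.3 FPKM in FTC-133 and from 0.454 to 2.53 FPKM in 8505C. CDC25C, the phosphatase that removes the inhibitory phosphates of CDK1, had the lowest values of the 5, between 5.14 and 9.35 FPKM in BHT-101 and FTC-133 and at 0.0918 and 0.488 FPKM in 8505C, the latter from 7 and 36 reads.

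Of the mitotic kinases, BUB1, which recruits checkpoint proteins to the kinetochore, had the smallest adjusted p of all members between FTC-133 and BHT-101. It was 6.76 and 7.91 FPKM in BHT-101, 27.6 and 27.1 FPKM in FTC-133, and 0.341 and 0.953 FPKM in 8505C. The limma difference between FTC-133 and BHT-101 was 1.77 (SE 0.21, adjusted p = 0.000894), and that between 8505C and FTC-133 was -4.13 (adjusted p = 4.58e-05). TTK, the kinase that starts checkpoint signalling, was 1.79 higher in FTC-133 than in BHT-101 (adjusted p = 0.00312), with 6.08 and 6.65 FPKM against 25.7 and 23.4 FPKM. AURKA, the spindle pole kinase, was the least different between FTC-133 and 8505C in the control libraries, at 56.7 and 3.77 FPKM, a ratio of 15.1. AURKB, the kinase of the chromosomal passenger complex, was 11.3 and 10.3 FPKM in BHT-101, 25.4 and 30.9 FPKM in FTC-133, and 0.332 and 0.970 FPKM in 8505C. PLK1, which acts in centrosome maturation and cytokinesis, and BUB1B, the BUBR1 subunit of the checkpoint complex, lay at 7.75 to 8.28 FPKM in BHT-101.

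At the kinetochore, NDC80, NUF2 and SPC25, subunits of the NDC80 complex that grips microtubules, followed the same order of lines. NUF2 was 13.1 and 15.2 FPKM in BHT-101, 26 and 22.7 FPKM in FTC-133, and 0.117 and 0.808 FPKM in 8505C. All 3 were higher in FTC-133 than in BHT-101 (by 1.26, 0.74 and 0.92, adjusted p = 0.0156, 0.0466 and 0.0283) and lower in 8505C than in BHT-101 (at -2.42, -3.41 and -2.35). CENPA, the histone H3 variant that marks centromeres, was 8.55 and 7.35 FPKM in BHT-101, 19.2 and 16.1 FPKM in FTC-133, and 0.202 and 0.999 FPKM in 8505C. CENPE, a kinesin of the kinetochore, and CENPF, a large kinetochore and nuclear matrix protein, were lower in 8505C than in BHT-101 by limma, with differences of -1.35 and -2.52.

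KNL1, the scaffold on which BUB1 and BUB1B dock, stood apart from the other 34. It was 1.45 and 1.69 FPKM in BHT-101, 7.58 and 5.14 FPKM in FTC-133, and 0.290 and 8.31 FPKM in 8505C. With the empty vector 8505C held the lowest value of the 6 libraries, and with the CRABP2 vector it held the highest. None of its limma differences between lines passed, with 0.43 for 8505C minus BHT-101 (SE 0.83, adjusted p = 0.676), -1.07 for 8505C minus FTC-133 (adjusted p = 0.303) and 1.50 for FTC-133 minus BHT-101 (adjusted p = 0.177). Without the empty vector library KNL1 was 1.86 higher in 8505C than in BHT-101 and passed, and without the CRABP2 vector library it was at -0.99 and passed as lower.

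Among spindle motors, KIF20A, the midzone kinesin MKLP2, had the widest ratio of any member between the control libraries of 8505C and the other lines. It was 18.8 and 20.9 FPKM in BHT-101, 53.8 and 32.6 FPKM in FTC-133, and 0.159 and 0.635 FPKM in 8505C, which came from 14 and 54 reads. Its limma difference for 8505C minus BHT-101 was -3.92 (SE 0.28, adjusted p = 0.000102). DLGAP5, which stabilises kinetochore fibres, was 10.7 and 14.2 FPKM in BHT-101, 60.4 and 49.2 FPKM in FTC-133, and 0.401 and 2.17 FPKM in 8505C, and had the largest difference of all members tested between FTC-133 and BHT-101 at 2.06 (SE 0.38, adjusted p = 0.00548). KIF23, a kinesin of the centralspindlin complex, and KIF2C, a microtubule depolymerase, had 1.76 and 1.51 (adjusted p = 0.00243 and 0.00587). TPX2, which activates AURKA on spindle microtubules, was among the highest members, with 44.6 and 44.4 FPKM in BHT-101, 82.8 and 62.4 FPKM in FTC-133, and 4.22 and 7.11 FPKM in 8505C. KIF11, the motor that pushes the spindle poles apart, kept 1.14 and 1.98 FPKM in 8505C. HMMR, a spindle assembly factor also known as a hyaluronan receptor, was 7.41 and 8.99 FPKM in BHT-101, 21.9 and 13.8 FPKM in FTC-133, and 0.501 and 3.17 FPKM in 8505C.

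PRC1, the bundler of midzone microtubules, and NUSAP1, a microtubule-binding protein, share most of their exon bases with other genes. In GENCODE release 29, 58.4% of the exon bases of PRC1 and 62.2% of those of NUSAP1 are shared with another annotated gene, against at most 12.5% (PLK1) for any other member. PRC1 held 1 to 47 reads per library and was the lowest member in all 6. NUSAP1 was 1.99 and 2.35 FPKM in BHT-101, 6.0 and 4.77 FPKM in FTC-133, and 0.244 and 0.520 FPKM in 8505C. Both levels are uncertain, and whether reads from shared exons were dropped was not tested.

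In the chromosomal passenger complex, BIRC5 (survivin) was 18.4 and 19.6 FPKM in BHT-101, 42.5 and 33.7 FPKM in FTC-133, and 0.241 and 1.32 FPKM in 8505C. CDCA8 (borealin), which binds survivin, was 13.1 and 11.3 FPKM in BHT-101, 38.9 and 25.2 FPKM in FTC-133, and 0.309 and 0.960 FPKM in 8505C. ANLN (anillin), the scaffold of the contractile ring, was 14.2 and 16.7 FPKM in BHT-101, 53.7 and 33.8 FPKM in FTC-133, and 0.839 and 2.79 FPKM in 8505C. All 3 were higher in FTC-133 than in BHT-101 by limma, by 0.96, 1.30 and 1.41 (adjusted p = 0.0378, 0.00941 and 0.0215), and all 3 were lower in 8505C.

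Genes of anaphase were among the most abundant members. UBE2C, the ubiquitin-conjugating enzyme of the APC/C, was 59.8 and 65.7 FPKM in BHT-101, 134 and 138 FPKM in FTC-133, and 0.749 and 4.58 FPKM in 8505C. It was the highest member in both BHT-101 libraries and had the largest distance between 8505C and FTC-133, -5.45 (SE 0.49, adjusted p = 0.000249). CDC20, the activator of the APC/C, was 43.2 and 42.4 FPKM in BHT-101, 125 and 89.1 FPKM in FTC-133, and 1.33 and 4.68 FPKM in 8505C. PTTG1, the securin that CDC20 targets, was 25.5 and 33.2 FPKM in BHT-101, 85.2 and 93.2 FPKM in FTC-133, and 4.36 and 7.31 FPKM in 8505C, so in 8505C it lay above UBE2C and in the other lines below. PTTG1 has near-identical copies elsewhere in the genome and its reads are uncertain to that extent.

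The proliferation marker MKI67, which coats mitotic chromosomes, was 8.62 and 7.86 FPKM in BHT-101, 16.7 and 9.74 FPKM in FTC-133, and 0.290 and 0.941 FPKM in 8505C. TOP2A, the topoisomerase that untangles sister chromatids, was 32.4 and 37.2 FPKM in BHT-101, 93.7 and 60.5 FPKM in FTC-133, and 2.42 and 4.17 FPKM in 8505C. By limma 8505C was lower than BHT-101, with differences of -2.54 for MKI67 (adjusted p = 0.000581) and -3.09 for TOP2A (adjusted p = 0.00023). MKI67 did not differ past the threshold between FTC-133 and BHT-101 (0.58, SE 0.30, adjusted p = 0.151), and its siCRABP2 value in FTC-133 was closer to BHT-101 than to its own siControl value. The other members without a call between FTC-133 and BHT-101 were CDK1, PLK1, KNL1, CENPF, TPX2, HMMR and UBE2C.

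**Figure D2:**
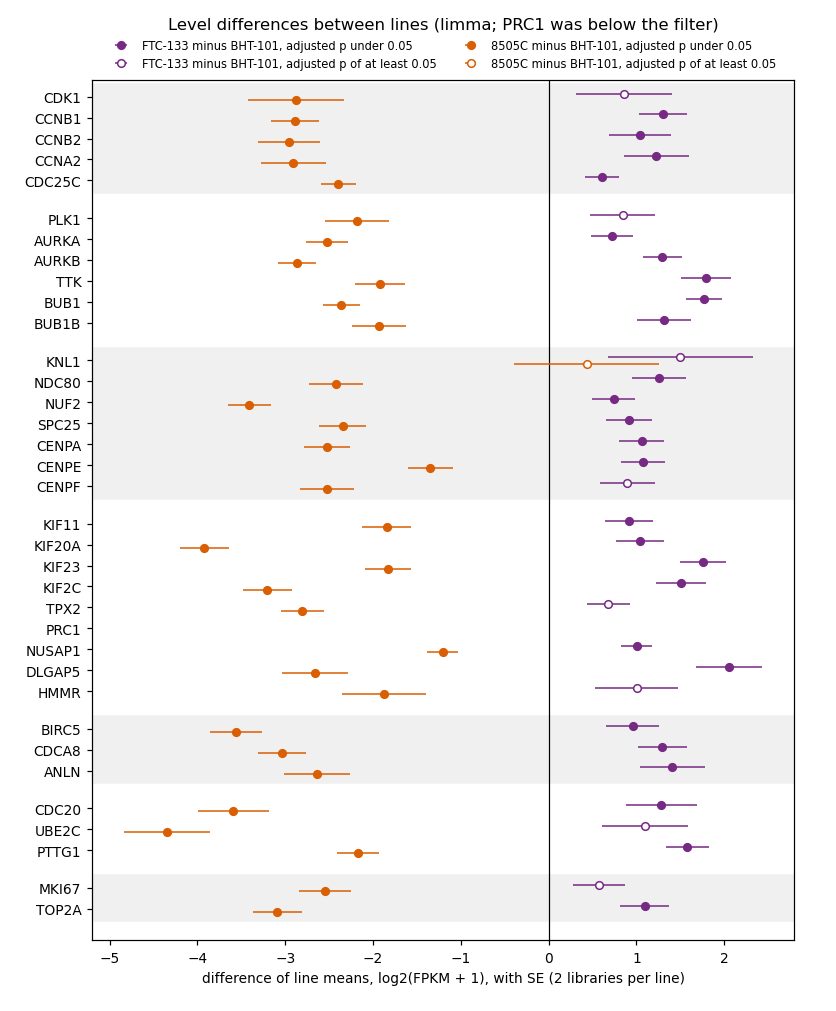
Difference of line means on log2(FPKM + 1), with its standard error, for FTC-133 minus BHT-101 and 8505C minus BHT-101 (limma, 2 libraries per line); filled points have an adjusted p under 0.05, and the 2 contrasts share the BHT-101 libraries. In FTC-133 26 of 34 genes were higher and in 8505C 33 of 34 were lower, with KNL1 at 0.43 and a standard error of 0.83.

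Within each line the question was what lowering or raising CRABP2 did to these genes. With 1 library per condition there is no replicate check and no test. Each fold is the ratio of reads after scaling to library totals, with a 95% exact (Clopper-Pearson) interval. These intervals hold counting error alone, and no molecular identifiers separate PCR copies from independent molecules. A gene was called by size where it differed by at least 1 on log2(FPKM + 1) and reached 1 FPKM in 1 or both libraries of the line.

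In BHT-101 the mitosis genes were slightly higher with siCRABP2. Of the 35, 27 lay above 0 and 8 below, with a median difference of 0.14. Of 12055 measured genes 6422 lay above 0, with a median of 0.01. The intervals lay above 1 for 18 members, where 23.7% of genes did, and below 1 for 3, where 19.2% did. By size 0 members were called, against a background of 0.589% higher and 0.539% lower. The folds ran from 0.859 for CENPA (interval 0.743 to 0.993) to 1.33 for DLGAP5 (1.22 to 1.44). After DLGAP5 came PTTG1 (1.30), KIF2C (1.27), CDC25C and CENPE (1.22 each). PLK1, KIF11 and TPX2 lay within 1% of equality, with folds of 1.0, 1.01 and 0.997. The 3 members with an interval below 1 were CENPA, CDCA8 (0.861) and MKI67 (0.912).

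In FTC-133 the mitosis genes were lower with siCRABP2. Of the 35, 31 lay below 0 and 4 above, with a median difference of -0.34. Of 12832 measured genes 6914 lay below 0, with a median of -0.04. The intervals lay below 1 for 28 members, where 39.5% of genes did, and above 1 for 2, where 32.1% did. By size 0 members were called, against a background of 2.36% higher and 2.35% lower. The lowest ratio belonged to CENPF, which went from 22.9 to 11.8 FPKM, a ratio of 0.517 (0.496 to 0.538). MKI67 followed at 0.583, the motor KIF11 at 0.589, PLK1 at 0.591 and KIF20A at 0.606. These 5 act at different steps, from spindle assembly to cytokinesis. Their FTC-133 siCRABP2 values still lay above both BHT-101 values. The lower FTC-133 library did so for all 35 members and for 48.3% of 13736 genes. With siCRABP2 the summed FPKM of the 5 fibroblast markers went from 120 to 81.4 in this line (THY1 from 79.6 to 56.5, COL1A1 from 39.5 to 24.1) and that of the 7 thyroid markers from 35.6 to 25.8, while that of the 5 epithelial markers was 54.5 and 52.6. The part of these markers in the members' values was not tested.

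Not every member was lower. AURKB went from 25.4 to 30.9 FPKM in FTC-133, a fold of 1.22 (1.14 to 1.31), and PTTG1 from 85.2 to 93.2 FPKM, a fold of 1.09 (1.05 to 1.14). UBE2C was at 1.03, AURKA at 1.0, and BUB1 at 0.982, and their intervals held 1. The passenger complex thus split, with its kinase AURKB higher and its partners CDCA8 (0.649) and BIRC5 (0.793) lower. Anaphase genes split as well, with CDC20 at 0.712 beside UBE2C and PTTG1. All 7 kinetochore and centromere members lay below 1, with a median fold of 0.73, and the 6 mitotic kinases had a median of 0.946.

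The members furthest below 1 in FTC-133 tended to have long exons. Across 34 members without PRC1, the Spearman correlation of the fold with exon length was -0.554, beside -0.148 across 6734 protein-coding genes with a mean of at least 5 FPKM. In BHT-101 the same values were 0.0307 and -0.0746, and in 8505C -0.142 and -0.307. In BHT-101 the fold followed GC content, with -0.409 across the members and -0.451 across 6289 genes. The median GC content was 42.9% for the members and 49.4% for those genes. The genes of a line share 2 libraries and are not independent, so these values are descriptions. The part of length and GC content in the folds was not tested.

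**Figure D3:**
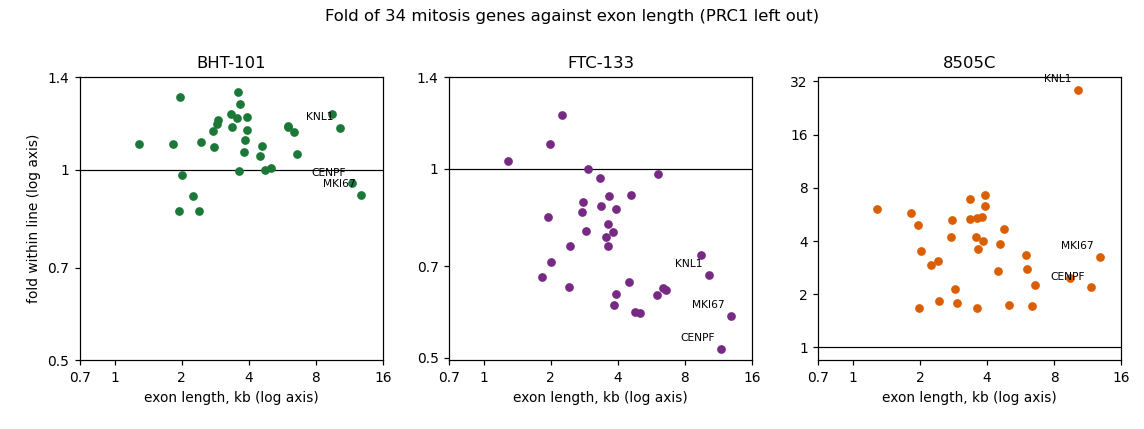
Fold within each line (log axis) against the exon length of the gene in kilobases (log axis) for 34 mitosis genes, 1 point per gene; the horizontal line marks a fold of 1. In FTC-133 the long genes CENPF and MKI67 lie lowest (Spearman correlation -0.554), while no such slope is seen in BHT-101 (0.0307).

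The promoter motifs divided the members as follows. In FTC-133 the 19 members with TTTGAA or TTTAAA in the 100 bases before the start had a median fold of 0.66 (0.583 to 1.09), and the 10 without had 0.845 (0.517 to 1.22). The median of 0.66 is the fold of PRC1, whose level is uncertain, from 47 and 34 reads (interval 0.412 to 1.05). In BHT-101 the medians were 1.11 and 1.16 and in 8505C 3.25 and 3.91. The ranges overlapped in every line.

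The same knockdown thus went with opposite directions in BHT-101 and FTC-133 for much of the set. Of the 35 members, 24 lay above 0 in BHT-101 and below 0 in FTC-133, where 25.5% of 10658 genes measured in both lines did. For 13 the BHT-101 interval lay above 1 and the FTC-133 interval below 1, where 7.59% of genes had this pattern, among them TOP2A (1.15 and 0.646), ANLN (1.17 and 0.63), KIF20A (1.11 and 0.606) and HMMR (1.21 and 0.632). PTTG1 alone had both intervals above 1, where 10.9% of genes did, and CENPA, CDCA8 and MKI67 had both below, where 9.9% did. Across 34 members without PRC1 the folds in BHT-101 and FTC-133 had a Spearman correlation of 0.355, beside 0.184 across 5520 genes. CRABP2 itself held 240 and 5 reads in FTC-133, a ratio of 0.019, and 826 and 276 reads in BHT-101, a ratio of 0.418.

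In 8505C the mitosis genes were higher with the CRABP2 vector. Of the 35, 34 lay above 0, with a median difference of 0.69. The exception was PRC1, with 2 and 1 reads. Of 11731 measured genes 6191 lay above 0, with a median of 0.02. The intervals lay above 1 for 34 members, where 35.1% of genes did, and below 1 for 0, where 30.8% did. The median fold was 3.53. By size 9 members were called higher (CDK1, CCNB2, CCNA2, KNL1, DLGAP5, HMMR, ANLN, CDC20 and UBE2C), against a background of 1.85%, and 0 lower, against 1.86%. Of the 23 members at 1 FPKM or more in a library of this line, 16 were so only with the CRABP2 vector, so their direction was fixed by that filter. The number called was 15 with a pseudocount of 0.5 and 17 with 0.1.

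KNL1 had the largest fold of the set, 28.6 (22.5 to 37.0), from 68 reads in the empty vector library and 1880 reads in the other. Its difference of 2.85 ranked 2nd among the 11731 genes measured in 8505C. CDK1 followed at 7.34 (5.65 to 9.67), then NUF2 at 6.90 (3.40 to 15.8), HMMR at 6.32 (4.60 to 8.87) and UBE2C at 6.11 (3.87 to 10.1). NUF2, SPC25 (5.79), CDC25C (5.32), CENPA (4.94) and PRC1 had fewer than 10 reads with the empty vector, and their intervals are wide. Apart from PRC1, with 0.517 (0.00877 to 9.94), the smallest folds, between 1.68 and 1.84, belonged to PTTG1, TPX2, TOP2A, KIF11, AURKA and CCNB1. Those 6 and CDC20 are the members at 1 FPKM or more in both 8505C libraries, and CDC20 had a fold of 3.53 (2.64 to 4.77).

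The distance of KNL1 from the rest was not shared by RPUSD2, which lies beside it on chromosome 15. KNL1 lies at positions 40594020 to 40664342 in GRCh38. RPUSD2, the nearest measured gene on one side, went from 5.59 to 8.41 FPKM (fold 1.50). NDC80 (fold 4.21) lies on chromosome 18, where 164 measured genes had a median difference of 0.39 in 8505C, beside 0.02 over genes of the other chromosomes. The part of that shift in the value of NDC80 was not tested.

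Even with the CRABP2 vector, 8505C did not reach the other lines for any member but KNL1. In that library CDK1 was at 5.31 FPKM against 21.6 in the BHT-101 siControl library, UBE2C at 4.58 against 59.8 and CDC20 at 4.68 against 43.2. Mitochondrial genes took 2.68% and 1.61% of reads in 8505C, 3.69% and 2.88% in FTC-133, and 5.43% and 4.73% in BHT-101. The summed FPKM of the 5 epithelial markers in 8505C went from 147.8 to 234.8, from KRT8 (45.8 and 76.3) and KRT18 (101.8 and 158.4), with EPCAM, CDH1 and KRT19 under 1 FPKM in both libraries. The part of mitochondrial genes and of these markers in the members' differences was not tested.

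**Figure D4:**
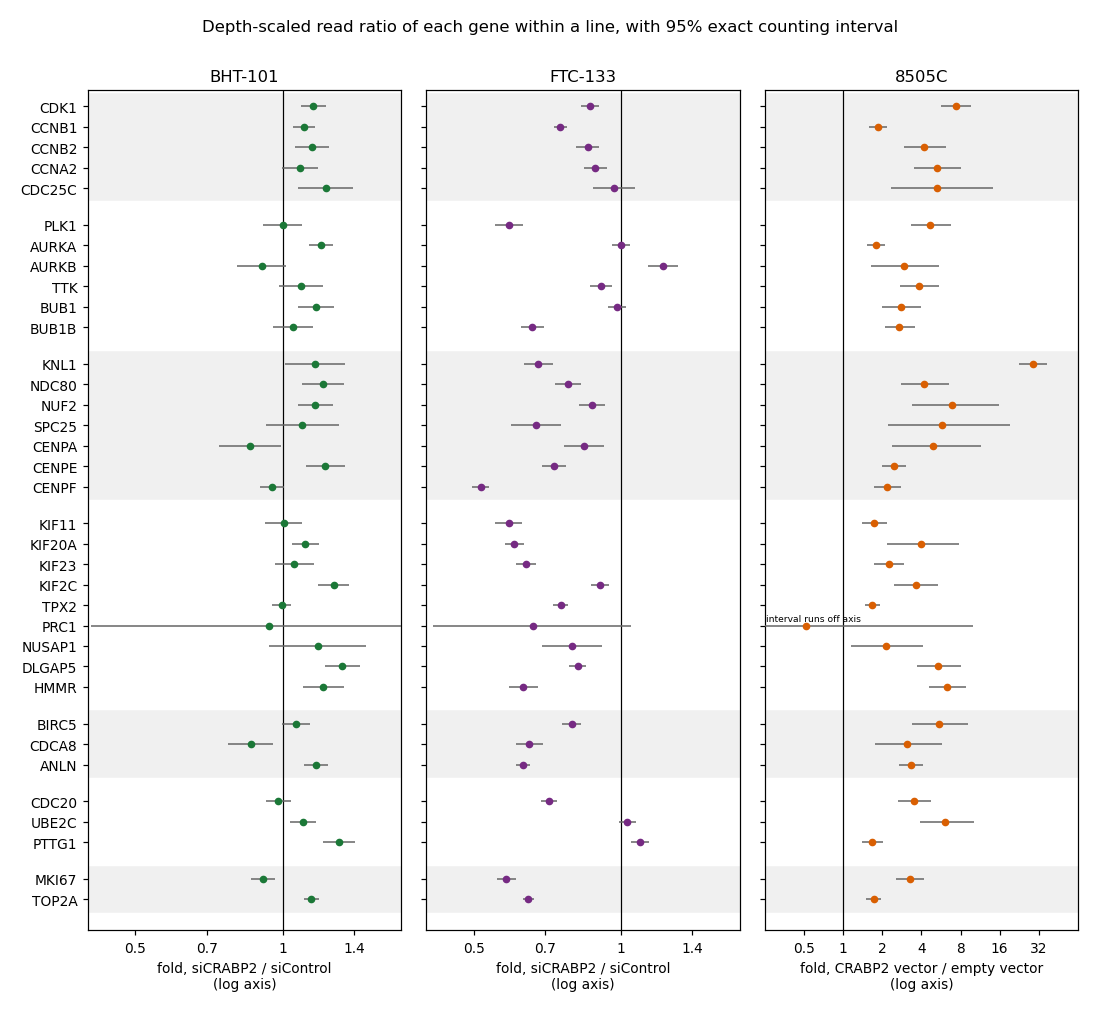
Fold of reads, scaled to library totals, for each of the 35 mitosis genes within BHT-101 and FTC-133 (siCRABP2 over siControl) and 8505C (CRABP2 vector over empty vector), on log axes that differ in range; bars are 95% exact counting intervals and each fold compares 2 libraries. In BHT-101 27 genes lie above 1, in FTC-133 31 lie below 1, and in 8505C 34 lie above 1 with KNL1 at 28.6.

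Over lines, no member passed. With the cell line as a block, limma on the 4 siRNA libraries called 0 of 12953 genes (background 0%), with 314 higher and 225 lower at an unadjusted p under 0.05, and 0 of 34 members at either level. The members' median was -0.13, and their smallest adjusted p was 0.87. Over all 6 libraries, the arm with lower CRABP2 (siCRABP2 and empty vector) was set against the arm with higher CRABP2 (siControl and CRABP2 vector). All 34 members tested lay below 0 in the lower arm, with a median of -0.36, beside -0.02 over all genes. None of 11628 genes passed (background 0%), with 193 higher and 179 lower at an unadjusted p under 0.05. Among the members CENPA, CDC20, CENPF, CDCA8, MKI67 and PLK1 were lower at an unadjusted p under 0.05, each with an adjusted p = 0.9995.

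Leaving out FTC-133 changed this. BHT-101 and 8505C alone gave 3 of 23 members tested that passed as lower in the lower arm, where 0.409% of 10020 genes did. They were KNL1 at -1.36 (SE 0.20, adjusted p = 3.24e-08), CDK1 at -0.83 (adjusted p = 0.00293) and UBE2C at -0.77 (adjusted p = 0.0129). With 1 residual degree of freedom, limma took the spread of these 3 genes largely from that of all genes. Their p-values therefore do not measure how alike BHT-101 and 8505C were. Of the 23, 16 met the filter of 1 FPKM in 3 or more libraries only through the CRABP2 vector library, these 3 among them. Their direction in 8505C was thus fixed by that filter. In BHT-101 the 3 genes were higher with siCRABP2 (folds of 1.16, 1.16 and 1.10), so the direction was that of 8505C. Without BHT-101 0 of 23 members passed and 17 were lower at an unadjusted p under 0.05, where 222 of 10310 genes were. The same 16 members met the filter there only through the CRABP2 vector library. Without 8505C 0 of 34 passed and 0 were at an unadjusted p under 0.05. In that fit AURKA, AURKB, BUB1, CDC25C, DLGAP5, KIF2C, NUF2, PTTG1 and UBE2C lay above 0 in the lower arm, between 0.0102 for NUF2 and 0.25 for PTTG1.

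The rest of the pathway was read through 9 lists with 155 genes, which are described by counts and medians. In FTC-133 all 19 other spindle and cytokinesis proteins were lower with siCRABP2, with a median difference of -0.35, among them the chromokinesin KIF4A (20.4 to 12.0 FPKM), KIF18A (13.3 to 8.18 FPKM) and the spindle pole protein ASPM (12.2 to 8.48 FPKM). All 19 condensin and cohesin genes were lower as well (median -0.46), with the condensin subunits NCAPH (8.63 to 4.31 FPKM), SMC2 (19.5 to 10.6 FPKM) and SMC4 (21.4 to 12.1 FPKM) lowest. Of 18 outer kinetochore and checkpoint genes 15 were lower (median of measured genes -0.23). The kinetochore protein ZWINT (43.7 to 19.5 FPKM) and the dynein adaptor SPDL1 (33.7 to 16.3 FPKM) were called lower by size there, which no member was. Of 17 inner kinetochore genes 11 were lower, with CENPM at 14.9 and 7.33 FPKM. Of all 12832 measured genes 6914 were lower.

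Lowest in FTC-133 was the replication list, with 25 of 26 genes below 0 and a median of -0.66. The primase PRIM1 went from 13.8 to 4.63 FPKM and was called by size. Of the cell-cycle transcription factors and DREAM subunits 16 of 19 were below 0 in FTC-133, and 15 of 19 were below 0 in BHT-101. Among them in FTC-133, FOXM1 went from 18.1 to 8.28 FPKM (fold 0.457, 0.425 to 0.491) and MYBL2, which encodes B-MYB, from 34.6 to 18.6 FPKM (0.538). The CDK inhibitor CDKN1A (p21) went the other way, from 9.39 to 32.8 FPKM (3.49, 3.21 to 3.80), while CDKN2C went from 84.3 to 47.8 FPKM. The part of these factors and inhibitors in the members' values was not tested. The APC/C list was mixed, with 10 of 17 below 0, ANAPC2 at 14.0 and 8.30 FPKM and UBE2S, its chain-extending enzyme, at 142 and 196 FPKM. Of 12 mitotic entry regulators 7 were below 0, with GTSE1 at 19.2 and 11.1 FPKM and the CDK1-inhibiting kinase PKMYT1 at 5.99 and 3.51 FPKM. For both lists the share below 0 was near that of all measured genes, 6914 of 12832.

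In BHT-101 no list gene was called by size, and the medians lay between -0.05 (replication genes) and 0.11 (other spindle and cytokinesis proteins). Of 26 replication genes 17 were below 0, where 5633 of 12055 measured genes were, with PRIM1 at 6.55 and 4.53 FPKM. Of the 35 mitosis genes 27 were above 0, where 6422 measured genes were. RACGAP1 and ECT2, which act in cytokinesis, had folds of 1.23 and 1.22, and the kinase PBK 1.38. CDKN1A was 42.1 and 33.0 FPKM there, opposite in direction to FTC-133, and MYBL2 was 23.8 and 21.7 FPKM.

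In 8505C the lists followed the members less evenly. Of 11731 measured genes 6191 were above 0. Of 26 replication genes 24 were above 0 (median of measured genes 0.51), with MCM7 at 8.22 and 15.2 FPKM and MCM2 at 4.39 and 7.51 FPKM. Of 12 mitotic entry regulators 11 were above 0 (median of measured genes 0.76), and among those at 5 FPKM or more the largest differences included CKS2, a CDK-binding subunit, at 23.0 and 57.5 FPKM, and CDC25B, a phosphatase of CDK1, at 59.8 and 100.5 FPKM. E2F7, a repressor of the E2F family, was 2.05 and 6.16 FPKM. Condensin and cohesin genes were mixed, with 11 of 19 above 0, a median of -0.01 for measured genes and the cohesin subunit SMC1A at 11.4 and 5.99 FPKM. Over all genes of a list, measured or not, the medians were 0.47 for replication genes, 0.67 for mitotic entry regulators and 0.05 for condensin and cohesin. The microtubule polymerase CKAP5 (22.6 and 16.2 FPKM) and the APC/C subunit CDC27 (55.3 and 36.8 FPKM) were lower too. CDKN1A was 23.9 and 17.2 FPKM in 8505C, and CDKN2A 8.13 and 14.3 FPKM.

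Between lines the lists shared the members' order to different degrees. Against BHT-101, 8505C was lower for 16 of 19 other spindle and cytokinesis proteins, 10 of 12 mitotic entry regulators and 21 of 26 replication genes by limma, with medians of -1.69, -1.83 and -1.37, beside -2.54 for the members and 32% of all genes lower. For condensin and cohesin 8 of 19 were lower and 7 higher, and for the APC/C 7 of 17 were lower and 3 higher, where 30.1% of all genes were higher. FTC-133 was above BHT-101 for 16 of 19 other spindle and cytokinesis proteins and for 7 of 26 replication genes, where 26 of 34 members and 30.2% of all genes were. Without the filter on low values these were 12 of 19 and 3 of 26, where 13.4% of genes were. In that fit 8505C was lower than BHT-101 for 16 of 19 other spindle and cytokinesis proteins. It was lower for 10 of 12 mitotic entry regulators and 17 of 26 replication genes, where 14.1% of genes were.

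**Figure D5:**
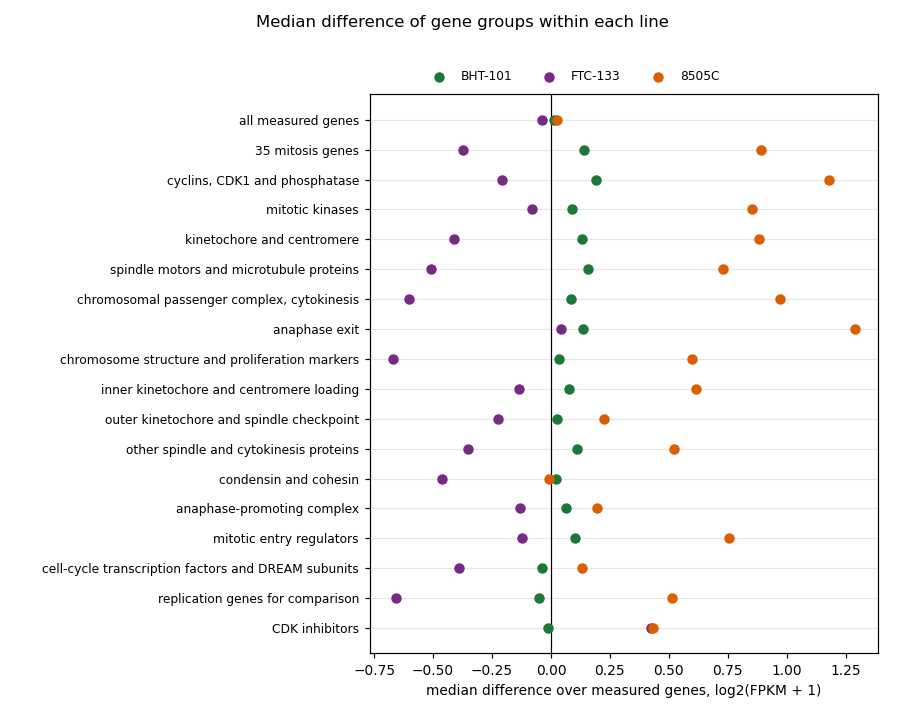
Median difference on log2(FPKM + 1) over the measured genes of each role and each pathway list within BHT-101, FTC-133 (siCRABP2 minus siControl) and 8505C (CRABP2 vector minus empty vector), 1 point per line; all measured genes are at the top. Over measured members of the mitosis genes the medians are 0.14, -0.37 and 0.89, and replication genes have -0.05, -0.66 and 0.51. In 8505C 23 members were measured, 16 of them only with the CRABP2 vector, and the median over all 35 is 0.69.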

How the data were processed

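Total RNA came from a Trizol extraction and was made into Illumina libraries, per the labels' protocols. The deposited values are FPKM per gene in 1 table of 6 libraries. FastQC, Trimmomatic 0.38, featureCounts 2.0.0 and GRCh38 are named, per the submitters' processing notes. The aligner, annotation release and strand setting are not stated there, so reads of overlapping genes on opposite strands cannot be separated.

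Exon lengths of GENCODE release 29 turned the authors' FPKM into whole reads for 75.2% of 33700 genes above 0 (tolerance 0.001 reads), and for 99.8% with other lengths found by search. All 35 members had whole reads. Release 29 held 58611 of 58884 identifiers. Differences used log2(FPKM + 1). Genes were measured at 1 FPKM in 1 or both libraries of a line. limma 3.58.1 (R 4.3.3) used a variance trend and Benjamini-Hochberg adjustment over all genes at 0.05. It was fitted to the 4 siRNA libraries (at least 1 FPKM in 2 or more), to 6 libraries by arm (in 3 or more), both with the line as a block because the labels name it, and to line means (in 2 or more). Residual degrees of freedom were 1, 2 and 3. The fit to line means was also run on simulated data in which the libraries of a line did not differ by treatment. The other fits were not checked in this way. No test was made within a line.

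The members and lists were chosen with earlier results of these data known. The text names all members, CRABP2, and in each list up to 3 genes per line with the largest difference among those at 5 FPKM or more, with a neighbour of KNL1. Some genes that this rule names are not reported here. Alternatives were other pseudocounts, filters, normalization, fits without the block or the trend, and each library or line left out.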

Additional observations from a re-analysis of the deposited data

Results flagged for a closer look

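The response to siCRABP2 went opposite ways in BHT-101 and FTC-133. The median difference of the 35 members on log2(FPKM + 1) stood at 0.14 for BHT-101 against -0.34 for FTC-133. For 13 members the counting interval lay above 1 in BHT-101 and below 1 in FTC-133, as it did for 7.59% of the genes measured in both lines. With 1 library per condition the difference between the lines was not tested. The FTC-133 difference minus the BHT-101 difference was largest for HMMR (-0.87), ANLN (-0.86), KIF20A (-0.85) and TOP2A (-0.81). It was -0.67 for DLGAP5, -0.64 for CENPE, -0.62 for KNL1, -0.59 for NDC80 and -0.55 for CCNB1. The smallest were those of KIF2C (-0.47), CDK1 and CCNB2 (-0.41 each) and NUF2 (-0.40).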

How the results depend on the processing

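Over 7 settings the members' median kept its sign in each line, with 0.12 to 0.15 in BHT-101. In FTC-133 the median of -0.34 was -0.41 with a pseudocount of 0.1, -0.30 with the median of measured genes set to 0, -0.37 with quantile normalization, -0.37 for members at a mean of 1 FPKM or more and -0.40 without PRC1 and NUSAP1, a setting added after seeing the data. In 8505C the median of 0.69 was 1.62 and 0.95 with pseudocounts of 0.1 and 0.5, which called 17 and 15 members higher, and 0.99 for members at a mean of 1 FPKM, of which 19 were above 0. For FTC-133 minus BHT-101, 26 members passed, against 13 with a pseudocount of 0.1, 17 with quantile normalization and 10 without the filter. Leaving out single libraries gave 8 to 32 members and 2906 to 6795 genes there, 32 to 34 lower and 0 to 1 higher members with 5165 to 8979 genes for 8505C minus BHT-101, and 33 to 34 lower members for 8505C minus FTC-133. With single libraries left out, KNL1 ranged from -0.99 to 1.86 for 8505C minus BHT-101 (without the CRABP2 and the empty vector library) and from -2.49 to 0.36 for 8505C minus FTC-133. In the comparison of arms, leaving out single lines gave 0 to 87 genes and 0 to 3 lower members. There AURKA ran from -0.35 to 0.13, DLGAP5 from -0.73 to 0.0438, KIF2C from -0.48 to 0.0933, PTTG1 from -0.25 to 0.25 and UBE2C from -0.81 to 0.0896, each above 0 without 8505C, as were NUF2 (0.0102), CDC25C (0.10), BUB1 (0.0873) and AURKB (0.0737). In the knockdown fit NUF2 turned to -0.00219 with quantile normalization. No replicate block (cell line left out) gave 0 genes in either fit. The line is the only pairing, since every group has 1 library. The causes were not tested. Counting error is wide in 8505C, where members held 2795 reads in all with the empty vector.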
